A study of Mus musculus with 6 samples.

Results

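The genes described here are those of fatty acid oxidation in mitochondria and peroxisomes, the peroxisome assembly factors, the PPAR nuclear receptors, and the proteins that take up and activate fatty acids. They were taken from a list of 40 gene symbols grouped by function and chosen with earlier results of these data known. Of the 40, 39 had a column in the deposited table of 17546 genes. Ppara was not analysed here. All 39 passed the filter on low counts.

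RNA was profiled in lung ILC2s (group 2 innate lymphoid cells), lymphocytes that release type 2 cytokines and carry no antigen receptor. BALB/c mice were given 3 intranasal doses of 1 µg of recombinant mouse IL-33 before their lungs were taken for sorting, and in both groups the culture held 10 ng/mL of IL-2 and the same amount of IL-7. The control group received DMSO, the solvent (libraries DMSO 1 to 3), and the other group 10 µM Yoda1, a small molecule that opens the calcium-permeable mechanosensitive channel Piezo1 (libraries Yoda1 4 to 6), both for 24 h. Mouse age, sex and the number of mice are not given in the labels, all cells had been activated in vivo by IL-33, and no unstimulated group was analysed here. Each library is bulk RNA made from 10 ng of input, so fewer cells of a type and less RNA per cell cannot be told apart.

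Fatty acids enter the cell with the help of carriers such as CD36 and are bound in the cytosol by fatty acid binding proteins. Acyl-CoA synthetases then activate them. Long chains cross the inner mitochondrial membrane on carnitine, and each turn of beta-oxidation shortens the chain and hands electrons to the respiratory chain. Peroxisomes, built by the peroxins, shorten very long and branched chains. PPARs are ligand-activated receptors that pair with RXR and switch on many of these genes. ILC2s are known for taking up lipid, storing it in droplets, and using it as fuel during airway inflammation, and PPARγ is expressed in them.

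Levels are CPM, counts scaled by TMM factors to a common total over the tested genes, and differences are log2(Yoda1/DMSO) from edgeR's quasi-likelihood test, with the standard error (SE) and a p-value adjusted by Benjamini-Hochberg over all 13325 tested genes. A gene is said to have risen or fallen where that adjusted p is under 0.05. Total counts ran from 14214048 to 31627519 per library. Of 14 ILC2 markers all were tested: Arg1 rose, Icos and Il2ra fell, 11 did not pass the test, and Thy1 was low, at 1.49 to 2.87 CPM with DMSO and 0.115 to 1.23 CPM with Yoda1. Gata3 ran from 781.4 to 1032 CPM over the 6 libraries. DMSO 2 and DMSO 3 stood apart by airway epithelial transcripts: Scgb1a1, the club cell secretoglobin, was at 301.1 and 295.0 CPM there, at 0 in DMSO 1, and at no more than 0.0597 CPM in a Yoda1 library. These 2 libraries also share a number in their labels, as do Yoda1 4 and Yoda1 5, so a pair could come from 1 sample. The labels do not state separate cultures or mice, so p-values measure only the spread between these libraries, which may be technical.

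Of the 39 measured members, Pex11a rose, Ucp2 fell and 37 did not pass the test. The background over all tested genes was 1.49% called, 0.570% higher and 0.923% lower. Fold estimates were above 0 for 26 members and below 0 for 13, against 51.0% above 0 over all tested genes, and the members' median was 0.18 on the log2 scale, against 0.01 for all tested genes. At an unadjusted p under 0.05, 8 members were higher and 2 lower, where the background was 14.5% in all, 7.39% higher and 7.11% lower. The 3 Yoda1 libraries lay wholly above the 3 DMSO libraries for 7 members and wholly below them for 4, against 10.6% and 12.0% of all tested genes. The members that stood higher at that unadjusted threshold were 7 mitochondrial genes and Pex11a, and the 2 that stood lower were Ucp2 and Fabp5.

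**Figure D1:**
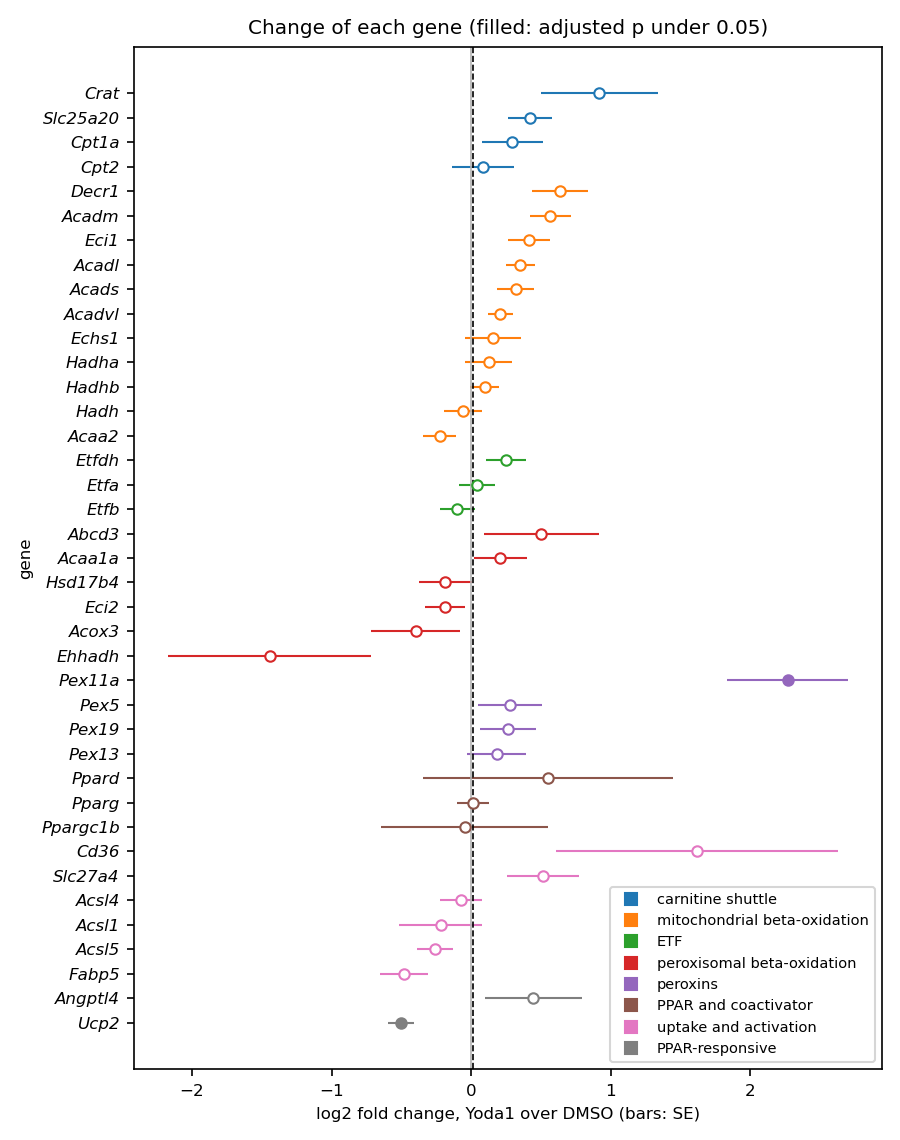
Log2 difference between Yoda1 and DMSO (x axis) for each of the 39 measured members, grouped by role (y axis, colours), with bars of 1 SE from edgeR's fit, filled points for an adjusted p under 0.05 and a dashed line at the median of all tested genes. Pex11a at 2.27 lies farthest to the right, most mitochondrial members lie slightly above 0, and Ehhadh at -1.44 lies farthest to the left with an open point and a long bar.

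The short sequences next to the starts of the genes that the results turn on are shown here, so that the genes discussed can be seen in place. All come from RefSeq's promoter windows on GRCm38.p6 (the mm10 build), read 5′ to 3′ on the gene's strand. Pex11a (chr7:79735957-79743131, minus strand) starts 31 bases from the first exon of Wdr93 on the other strand, and those 31 bases (chr7:79743132-79743162) are all that separates the 2 genes.
Pex11a-Wdr93 gap: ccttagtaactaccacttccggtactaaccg
Ucp2 (chr7:100493337-100502020, plus strand) is shown with the 229 bases before its annotated start (chr7:100493108-100493336).
Ucp2: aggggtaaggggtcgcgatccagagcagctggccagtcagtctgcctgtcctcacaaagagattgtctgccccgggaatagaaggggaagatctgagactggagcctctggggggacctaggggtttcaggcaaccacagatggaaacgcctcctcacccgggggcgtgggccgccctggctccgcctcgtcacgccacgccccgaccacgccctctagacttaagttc
Acadm (chr3:153922357-153944632, minus strand) is shown because it had the smallest p-value of the mitochondrial members, with the 250 bases before its RefSeq start (chr3:153944644-153944893). Capitals mark the 6 bases of a nuclear receptor hexamer, AGGTCA, here on the opposite strand as TGACCT.
Acadm: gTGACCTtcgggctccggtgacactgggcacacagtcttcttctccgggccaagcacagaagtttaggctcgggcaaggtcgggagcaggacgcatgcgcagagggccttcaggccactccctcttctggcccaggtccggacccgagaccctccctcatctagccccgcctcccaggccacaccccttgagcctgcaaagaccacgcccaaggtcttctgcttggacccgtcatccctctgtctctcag
Hadha and Hadhb, the 2 subunits of the mitochondrial trifunctional protein, also lie head to head, with 85 bases between them (chr5:30155163-30155247, shown on the plus strand).
Hadha-Hadhb gap: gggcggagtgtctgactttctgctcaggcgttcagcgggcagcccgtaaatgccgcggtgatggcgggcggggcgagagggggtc

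PPAR and RXR bind a direct repeat of this hexamer, 2 copies of AGGTCA with any 1 base between them. The RefSeq windows of 31 members and of 10880 genes of the table (some genes have several), from 250 bases before to 50 bases after the RefSeq start, were searched on both strands. The repeat was in a window of 0 of the 31 members and of 0.055% of all these genes, and a looser form, in which each copy reads AGGNCA, was in 0 of the 31 and in 0.285% of all. The hexamer AGGTCA alone, which the strict repeat contains, was in a window of Acadm, Acadvl, Cd36, Cpt1a, Echs1 and Pparg, that is 19.4% of the members against 15.03% of all these genes. A match is a string of letters and not a measured binding site, and elements farther from the start lie outside these windows.

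Pex11a, the member that rose, encodes a peroxisomal membrane protein that elongates the membrane when peroxisomes divide and is a known PPAR target in liver. Its level was 1.10, 2.59 and 1.84 CPM in DMSO 1 to 3 and 10.5, 7.91 and 8.47 CPM in Yoda1 4 to 6, which rest on 20, 82 and 26 counts and on 163, 137 and 142 counts. Every Yoda1 library was above every DMSO library, and the lowest Yoda1 value was 7.91 CPM against a highest DMSO value of 2.59 CPM. The mean went from 1.84 ± 0.74 to 8.97 ± 1.37 CPM (SD, n = 3 per group), 4.82-fold, with a log2 difference of 2.27 (SE 0.43, edgeR adjusted p = 0.0456). The log2 difference stayed between 2.01 and 2.61 when any 1 of the 6 libraries was left out, but the call was lost each time, with an adjusted p from 0.0649 without Yoda1 6 to 0.179 without DMSO 3. Against DMSO 1 alone the difference was 3.01, with an adjusted p of 0.619.

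The neighbour Wdr93, which starts 31 bases away in the opposite direction, was at 0 in 5 libraries and at 0.776 CPM in Yoda1 6 and was too low to be tested. Pex11g, of the same family, did not pass the test and was at 13.4, 8.84 and 7.17 CPM with DMSO and 5.16, 14.0 and 12.4 CPM with Yoda1 (log2 difference 0.10, SE 0.42). Its groups overlapped, and its sign turned when DMSO 3, Yoda1 5 or Yoda1 6 was left out. Per kilobase of transcript Pex11a went from 0.823 to 4.00 CPM per kb.

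The 3 other peroxins among the members showed small positive differences, and none passed the test. Pex5, the shuttling import receptor for enzymes that end in the peroxisomal targeting signal, was at 35.6, 22.6 and 29.1 CPM with DMSO and 31.2, 42.0 and 32.8 CPM with Yoda1 (log2 difference 0.28, SE 0.23). Pex19, the chaperone and receptor for peroxisomal membrane proteins, had a log2 difference of 0.26 (SE 0.20), and Pex13, part of the docking complex in the membrane, one of 0.18 (SE 0.21). Of 12 further peroxins tested, 11 had estimates above 0, against 51.0% of all tested genes. Their median was 0.17 on the log2 scale, and none passed the test. Only Pex16, which helps to place membrane proteins in new peroxisomes, had groups that did not overlap, and it is named after its values were seen. It was at 65.1, 48.2 and 61.0 CPM with DMSO and 91.5, 82.3 and 96.1 CPM with Yoda1 (log2 difference 0.63, SE 0.16, edgeR adjusted p = 0.0965).

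**Figure D2:**
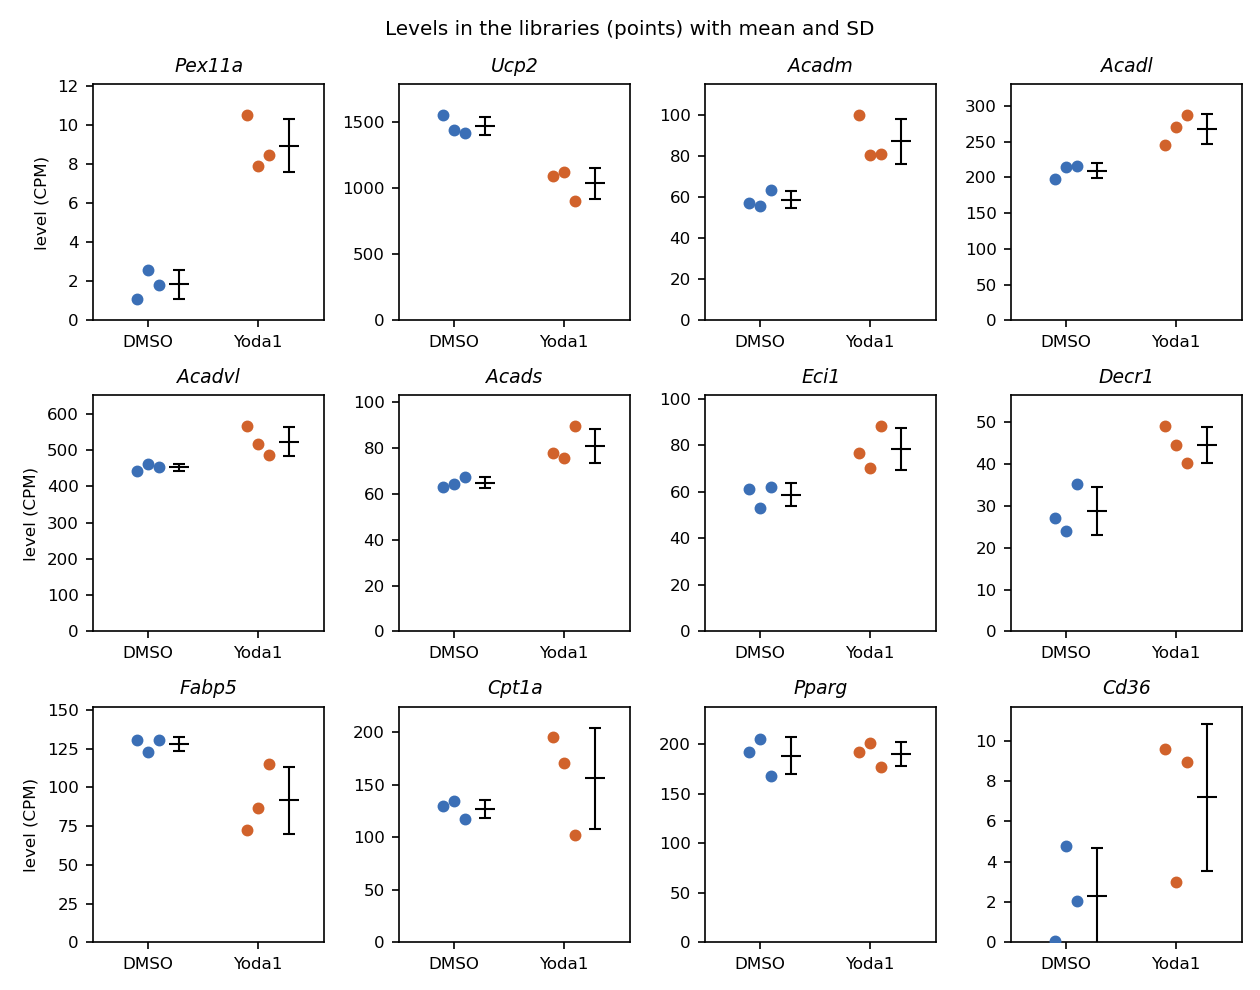
CPM in each library (points; DMSO and Yoda1 side by side) for selected members, with the group mean and SD bars; each panel has its own axis. The Pex11a and Ucp2 panels show groups that do not overlap in opposite directions, the Pparg panel shows groups that coincide, and in the Cd36 panel the DMSO bar is cut at 0.

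Ucp2, the member that fell, encodes an inner membrane carrier of the mitochondrial uncoupling protein family whose transcript responds to PPAR ligands and fatty acids in many tissues. It was at 1554, 1442 and 1422 CPM with DMSO and at 1091, 1120 and 905.0 CPM with Yoda1. The groups did not overlap, and the gap between the lowest DMSO and the highest Yoda1 library was wider than the range within either group. The mean went from 1472 ± 71.0 to 1039 ± 117 CPM (SD, n = 3 per group), and the log2 difference was -0.50 (SE 0.09, edgeR adjusted p = 0.0425). Left-out libraries moved the log2 difference only between -0.56 and -0.41, but the call held in 1 of the 6 fits, the one without Yoda1 6 (adjusted p = 0.0230), and was lost in the other 5 (0.0618 without Yoda1 4 to 0.185 without DMSO 2). Per kilobase of transcript Ucp2 was at 369.2 CPM per kb with DMSO and 260.5 with Yoda1, and Etfb, below it with DMSO and above it with Yoda1, at 361.5 and 337.6 CPM per kb. Angptl4, a secreted inhibitor of lipoprotein lipase and the other PPAR-responsive member, was at 11.6, 7.10 and 12.4 CPM with DMSO and 10.7, 19.8 and 11.6 CPM with Yoda1, with overlapping groups (log2 difference 0.45, SE 0.35, adjusted p = 0.610).

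The mitochondrial members are the 4 genes of the carnitine shuttle, 11 enzymes of beta-oxidation and the 3 genes of the electron transfer flavoprotein and its dehydrogenase. None of the 18 passed the test. Of these, 15 had estimates above 0, against 51.0% of all tested genes, and the median was 0.23 on the log2 scale. At an unadjusted p under 0.05, 7 were higher and none lower, against 7.39% and 7.11% of all tested genes. The summed level of the 18 was 2424 to 2503 CPM in the DMSO libraries and 2639 to 2860 CPM in the Yoda1 libraries. The count of 7 ranged from 3 to 6 when 1 library was left out, and it was 3 without DMSO 2. With DMSO 1 alone as the control, it was 0, with 13 of 18 estimates above 0 and a median of 0.26.

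The 4 acyl-CoA dehydrogenases among the members carry out the opening step of each beta-oxidation cycle on straight chains of different length. All 4 were higher in the 3 Yoda1 libraries than in any DMSO library, as were 10.6% of all tested genes. None of the 4 passed the test. Acadm, for medium chains, was at 56.9, 55.6 and 63.5 CPM with DMSO and 99.6, 80.6 and 80.9 CPM with Yoda1, 1.48-fold (log2 difference 0.57, SE 0.15, edgeR adjusted p = 0.107). Acadl, for long chains, was at 197.2, 215.1 and 216.5 CPM with DMSO and 245.7, 270.5 and 286.9 CPM with Yoda1 (log2 difference 0.35, SE 0.10, adjusted p = 0.149). Within each group the spread of both genes was smaller than the gap between the group means. Acadvl, for very long chains, was at 442.9, 460.3 and 451.9 CPM with DMSO and 565.3, 515.9 and 485.6 CPM with Yoda1 (log2 difference 0.21, SE 0.09, adjusted p = 0.321). Of its annotated exon bases, 42.9% also lie in exons of Dvl2 on the other strand, and the sources used here do not say whether counting used strand. Dvl2 itself was at 8.10 to 24.7 CPM with overlapping groups. Acads, for short chains, was at 63.0, 64.1 and 67.5 CPM with DMSO and 77.6, 75.6 and 89.4 CPM with Yoda1 (log2 difference 0.32, SE 0.13, adjusted p = 0.320).

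Decr1 and Eci1, auxiliary enzymes that let unsaturated fatty acids enter the cycle, showed the same arrangement. Decr1, the dienoyl-CoA reductase, was at 27.0, 23.9 and 35.1 CPM with DMSO and 49.0, 44.4 and 40.3 CPM with Yoda1, 1.56-fold (log2 difference 0.64, SE 0.20, edgeR adjusted p = 0.181). Eci1, the enoyl-CoA isomerase, was at 61.1, 53.0 and 62.2 CPM with DMSO and 76.4, 70.3 and 88.1 CPM with Yoda1 (log2 difference 0.41, SE 0.15, adjusted p = 0.244). The groups did not overlap for either gene, and neither passed the test. Of the 18 mitochondrial members, 6 lay wholly higher and 1 wholly lower with Yoda1, against 10.6% and 12.0% of all tested genes. DESeq2, run as an alternative, called 3 of these genes higher, Acadm (adjusted p = 0.0066), Acadl (0.0203) and Decr1 (0.0405), beside Pex11a, where it called 3.11% of all tested genes higher and 3.39% lower.

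The later steps of the cycle did not share this arrangement. Hadha and Hadhb, whose annotated starts are separated by 85 bases, had overlapping groups: Hadha was at 76.0, 54.1 and 56.7 CPM with DMSO and 69.3, 70.7 and 63.9 CPM with Yoda1, and Hadhb was at 253.5, 256.6 and 259.6 CPM with DMSO and 280.7, 244.4 and 299.3 CPM with Yoda1. Their log2 differences were 0.13 (SE 0.17) and 0.10 (SE 0.10). The short-chain hydratase Echs1 (log2 difference 0.16, SE 0.20) and the short-chain dehydrogenase Hadh (-0.06, SE 0.14) also overlapped. Acaa2, the thiolase that releases acetyl-CoA, was at 137.7, 173.1 and 159.3 CPM with DMSO and 135.1, 130.3 and 136.7 CPM with Yoda1, so that its groups did not overlap in the other direction (log2 difference -0.23, SE 0.12, edgeR adjusted p = 0.437). Whether the dehydrogenases differ from the later enzymes was not tested.

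**Figure D3:**
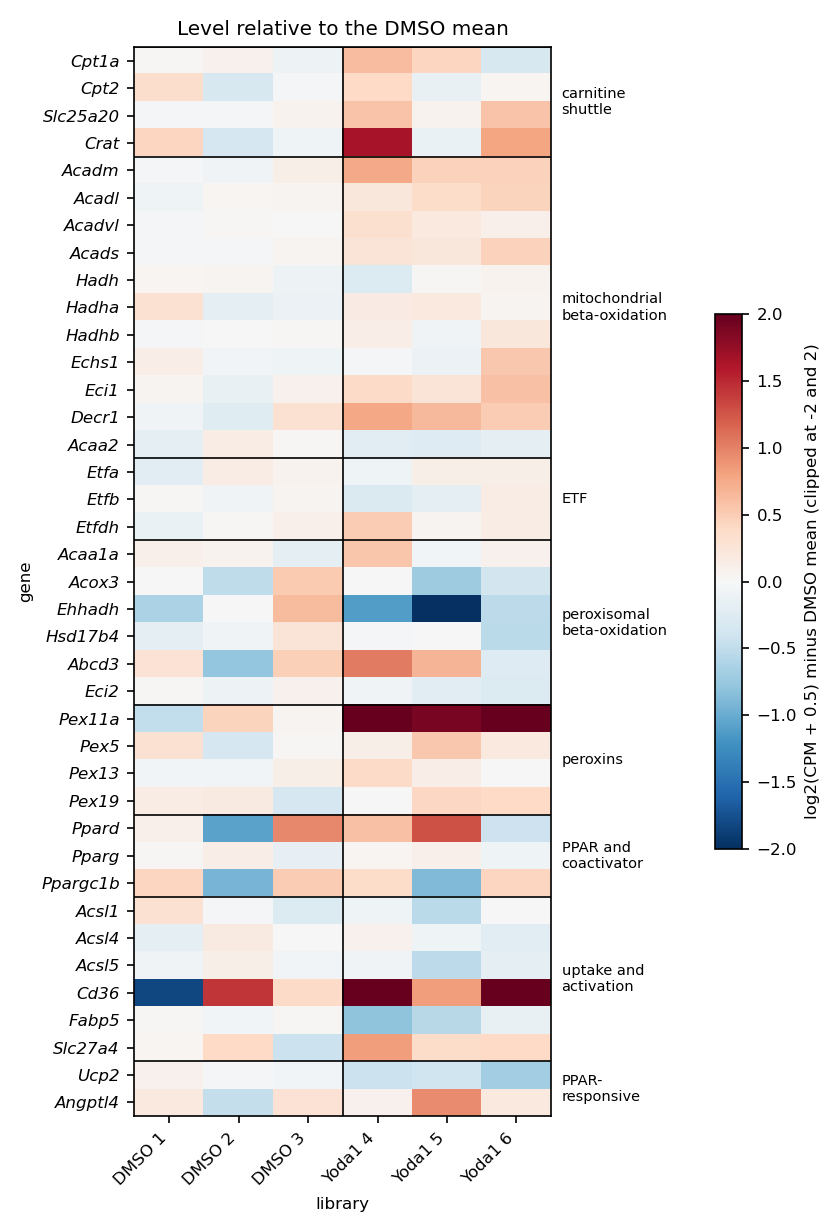
Each row is a member and each column a library, and the colour is log2(CPM + 0.5) minus the mean of the 3 DMSO libraries, with colours limited to values from -2 to 2. The acyl-CoA dehydrogenases, Decr1, Eci1 and Pex11a are red in the 3 Yoda1 columns, Ucp2 and Fabp5 are blue there, and Cd36 differs most between the DMSO columns.

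The 4 genes that move acyl chains across the mitochondrial membranes on carnitine all had positive estimates and overlapping groups. Cpt1a, the outer membrane transferase that limits the rate of entry, was at 129.6, 134.3 and 117.7 CPM with DMSO and 195.4, 171.1 and 102.0 CPM with Yoda1. Yoda1 4 and Yoda1 5 were above all DMSO libraries and Yoda1 6 below all of them, and the log2 difference was 0.30 (SE 0.22, edgeR adjusted p = 0.588), 0.53 without Yoda1 6 and 0.10 without Yoda1 4. Slc25a20, the carnitine-acylcarnitine exchanger, was at 92.1, 92.9 and 100.3 CPM with DMSO and 141.9, 99.6 and 141.0 CPM with Yoda1, and only Yoda1 5 fell within the DMSO range (log2 difference 0.42, SE 0.16, adjusted p = 0.262). Crat, carnitine acetyltransferase, which works in mitochondria and peroxisomes, was at 29.9, 17.3 and 20.7 CPM with DMSO and 69.9, 20.0 and 38.3 CPM with Yoda1 (log2 difference 0.92, SE 0.42, adjusted p = 0.360). Its estimate fell to 0.37 when the high library, Yoda1 4, was left out. Cpt2, the inner membrane transferase, had a log2 difference of 0.08 (SE 0.22). Of the electron acceptors, Etfa (0.04), Etfb (-0.10) and the dehydrogenase Etfdh (0.25) had overlapping groups and SE of 0.13 to 0.15, and 53.0% of Etfb's exon bases are shared with the annotated gene Gm45233 on the same strand, so reads there could be assigned to either.

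Among the 6 peroxisomal oxidation genes 2 estimates were positive and 4 negative, the median was -0.19 on the log2 scale, and all 6 had overlapping groups. Ehhadh, the bifunctional enzyme of the classical PPARα-inducible pathway, was at 6.95, 10.9 and 17.5 CPM with DMSO and 4.84, 0.635 and 7.52 CPM with Yoda1. Its lowest value came from 11 counts in Yoda1 5 and its highest from 247 counts in DMSO 3, and the log2 difference was -1.44 (SE 0.73, edgeR adjusted p = 0.406). Hsd17b4, the bifunctional enzyme of the branched-chain pathway, was at 76.7, 82.7 and 103.6 CPM with DMSO and 85.1, 86.9 and 59.5 CPM with Yoda1 (log2 difference -0.18, SE 0.19). Eci2, an isomerase found in peroxisomes and mitochondria, ran from 58.5 to 66.1 CPM with DMSO and from 51.5 to 59.5 CPM with Yoda1 (-0.19, SE 0.14). Acox3, the oxidase for branched chains, had a log2 difference of -0.40 (SE 0.32). The positive estimates were those of Abcd3, the transporter that brings acyl-CoA into peroxisomes (0.50, SE 0.41), and of the thiolase Acaa1a (0.21, SE 0.19), which has a close copy, Acaa1b, so its count is uncertain.

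A list of 99 other genes of these pathways was read beside the members, of which 81 had a column and 75 were tested. Of these, 2 rose and none fell, against 0.570% higher and 0.923% lower over all tested genes. At an unadjusted p under 0.05, 11 were higher and 1 lower, against 7.39% and 7.11% over all tested genes. The median log2 difference was 0.17. Among 23 other peroxisomal matrix and membrane genes none passed the test. At an unadjusted p under 0.05, 3 of them were higher and none lower, against the same 7.39% and 7.11%. Each of the 3 had groups that did not overlap, as had 10.6% of all tested genes in that direction. Catalase, Cat, which breaks down the hydrogen peroxide made by peroxisomal oxidases, was at 131.4, 125.9 and 146.2 CPM with DMSO and 185.1, 172.2 and 176.9 CPM with Yoda1 (log2 difference 0.41, SE 0.11, edgeR adjusted p = 0.121). The others were Abcd4, a transporter of the same family as Abcd3, and Pxmp2, a peroxisomal membrane protein, with log2 differences of 0.88 (SE 0.23) and 1.12 (SE 0.37). These 3 genes were singled out after their values were seen. Among 17 other mitochondrial oxidation genes tested, none passed the test and 12 estimates were above 0, against 51.0% of all tested genes. They include 7 further genes of the acyl-CoA dehydrogenase family, several of which act on branched chains from amino acids. Acad11 had Yoda1 libraries wholly above the DMSO libraries (log2 difference 0.38), and the groups overlapped for Acadsb (0.74), Ivd (0.53), Acad12 (0.40), Acad8 (0.33), Acad9 (-0.0043) and Acad10 (-0.65).

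The PPAR genes themselves did not differ detectably. Pparg was at 191.8, 205.1 and 168.0 CPM with DMSO and 192.2, 200.9 and 177.5 CPM with Yoda1. The groups coincided, with a log2 difference of 0.01 and an interval of 2 SE from -0.21 to 0.24, and the sign of so small an estimate changed under upper quartile scaling, to -0.0409. Ppard was at 1.32, 0.316 and 2.83 CPM with DMSO and 2.06, 3.64 and 0.776 CPM with Yoda1, which rest on 10 to 63 counts. Its log2 difference was 0.55 with an interval of 2 SE from -1.23 to 2.34, which includes changes of either sign. Ppargc1b, a PPAR coactivator of oxidative genes, was at 5.35, 1.77 and 5.66 CPM with DMSO and 5.10, 1.85 and 5.37 CPM with Yoda1 (log2 difference -0.05, SE 0.60). In each group 1 library was low, and the sign of Ppargc1b changed with the library left out. Per kilobase of transcript Pparg was at 106.6 CPM per kb with DMSO, far above Ppargc1b (1.28) and Ppard (0.455).

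The RXR partners also did not pass the test. Rxrb was at 60.6, 46.5 and 58.5 CPM with DMSO and 91.5, 83.4 and 72.7 CPM with Yoda1, with groups that did not overlap (log2 difference 0.58, SE 0.16, edgeR adjusted p = 0.133, DESeq2 adjusted p = 0.0144). Rxra was at 10.8, 11.3 and 8.49 CPM with DMSO and 8.65, 16.0 and 5.31 CPM with Yoda1, and Rxrg at 19.4, 13.1 and 9.27 CPM and 8.32, 20.9 and 12.1 CPM. Both had overlapping groups, log2 differences of -0.03 (SE 0.41) and -0.02 (SE 0.40), and signs that changed with the library left out.

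**Figure D4:**
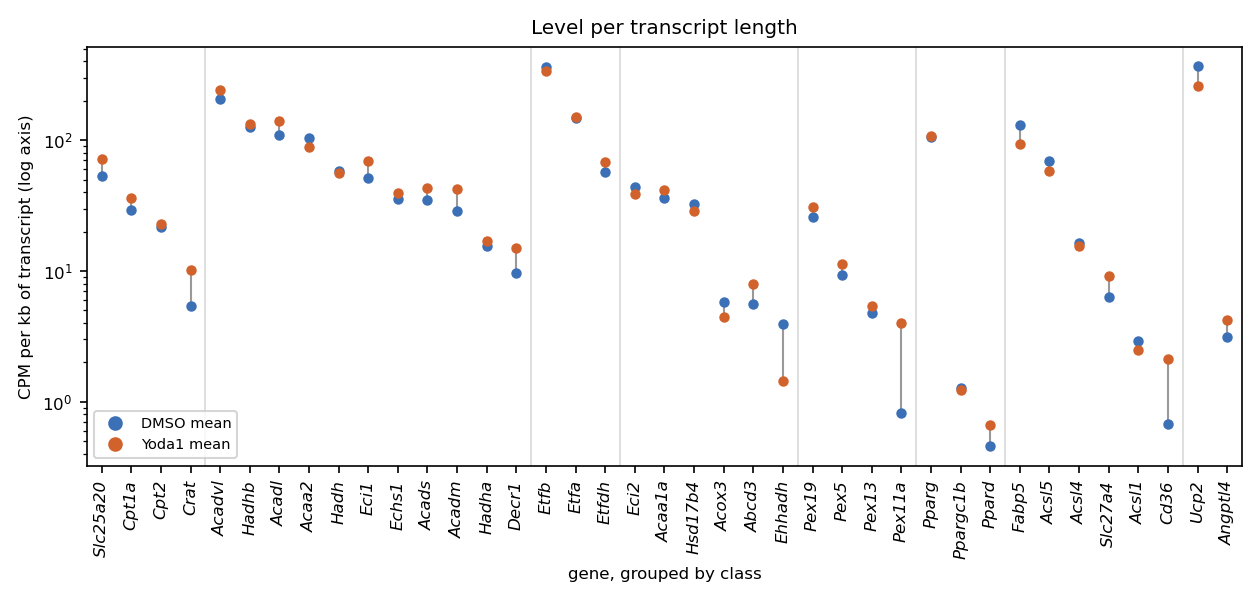
Mean CPM per kilobase of transcript (log axis) in DMSO and Yoda1 for each measured member, from the transcript with the longest coding sequence. Levels span from 0.455 CPM per kb for Ppard to 369.2 CPM per kb for Ucp2 in DMSO, and most Yoda1 points lie close to their DMSO points while those of Pex11a, Ehhadh and Cd36 are far apart.

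The uptake and activation members had 2 positive and 4 negative estimates, with a median of -0.15 on the log2 scale, and none passed the test. Fabp5, the fatty acid binding protein that carries lipid through the cytosol of many immune cells, was at 130.5, 123.0 and 130.5 CPM with DMSO and 72.9, 87.0 and 115.2 CPM with Yoda1. The groups did not overlap, with the DMSO libraries close together and the Yoda1 libraries spread more widely (log2 difference -0.48, SE 0.17, edgeR adjusted p = 0.236). Acsl5, a long-chain acyl-CoA synthetase, was at 283.3, 320.1 and 286.0 CPM with DMSO and 281.3, 204.9 and 257.3 CPM with Yoda1. Its groups were separated by only a narrow gap (log2 difference -0.26, SE 0.13, adjusted p = 0.410). Acsl4, which prefers arachidonic acid (-0.07, SE 0.15), and Acsl1 (-0.22, SE 0.30) had overlapping groups. Per kilobase of transcript the DMSO levels were 69.9 CPM per kb for Acsl5, 16.2 for Acsl4 and 2.90 for Acsl1. Slc27a4, the fatty acid transport protein FATP4, was at 25.9, 33.1 and 18.5 CPM with DMSO and 45.1, 32.5 and 33.5 CPM with Yoda1 (log2 difference 0.52, SE 0.26, adjusted p = 0.400).

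Cd36, the scavenger receptor that brings in long-chain fatty acids, rested on 1, 152 and 29 counts with DMSO and 149, 52 and 150 counts with Yoda1. That is 0.0552, 4.80 and 2.05 CPM against 9.62, 3.00 and 8.95 CPM, with overlapping groups and a wide error (log2 difference 1.62, SE 1.01, edgeR adjusted p = 0.515). Lpl, the lipoprotein lipase that frees fatty acids for uptake, was at 0.276, 5.96 and 0.142 CPM with DMSO and 10.1, 11.1 and 10.9 CPM with Yoda1 (log2 difference 2.27, SE 1.05, adjusted p = 0.368) and was also singled out after its values were seen. Macrophages express both genes, and the macrophage list, 8 of whose 15 markers had a column, summed to 12.0 to 16.6 CPM in the DMSO libraries and 24.9 to 27.6 CPM in the Yoda1 libraries. Its most abundant genes were Cd68 (6.40 to 13.8 CPM over the 6 libraries) and Lyz2 (1.29 to 4.91 CPM with DMSO, 6.32 to 11.2 CPM with Yoda1). Cd14 was at 1.06 to 1.36 CPM with DMSO and at 6.71, 3.40 and 0.179 CPM with Yoda1, and Itgax at 0.110, 1.64 and 0.283 CPM with DMSO and 0.0645, 0.0577 and 4.06 CPM with Yoda1. Adgre1 was at 0.0552, 1.67 and 1.27 CPM with DMSO and at 0 in all 3 Yoda1 libraries. Car4, Fcgr1 and Csf1r were at no more than 0.477 CPM in any library. The part of such cells in the Cd36 and Lpl values was not tested. No adipocyte marker of 5 had a column.

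The 2 other pathway genes that rose are PPAR-responsive and belong to the lipid droplet. They come from a list of 13 other PPAR-responsive genes, of which 4 had a column and 3 were tested. The third, Txnip, had an estimate in the other direction and overlapping groups (log2 difference -0.37, SE 0.15, edgeR adjusted p = 0.296). Plin2, which coats the droplet, was at 2070, 2012 and 2229 CPM with DMSO and 5464, 5167 and 5653 CPM with Yoda1 (log2 difference 1.37, SE 0.06, edgeR adjusted p = 9.03e-05). Hilpda, an inhibitor of the lipase that empties droplets, was at 119.0, 121.5 and 116.3 CPM with DMSO and 201.5, 259.6 and 247.6 CPM with Yoda1 (log2 difference 0.99, SE 0.12, adjusted p = 0.0087). Plin2 and Hilpda had groups that did not overlap. The Plin2 call held in each of the 6 fits without 1 library, while that of Hilpda held in the 2 without Yoda1 4 or Yoda1 6. With libraries of a shared label number summed, the adjusted p was 0.0152 for Plin2 and 0.168 for Hilpda. Both droplet genes are also known to respond to signals other than PPARs.

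The epithelial list summed to 91.8, 430.2 and 415.3 CPM in DMSO 1 to 3 and to 55.9 to 77.7 CPM in the Yoda1 libraries. Most of the sum in DMSO 1 and in the Yoda1 libraries was Epcam. Epcam was at 67.4, 64.5 and 65.9 CPM with DMSO and 57.8, 48.8 and 71.6 CPM with Yoda1. Krt8, Cdh1 and Sftpd were at 0 in DMSO 1 and in each Yoda1 library, while Krt18 was at 1.29 to 6.03 CPM with Yoda1. The part of epithelial transcripts in the results was not tested. Alveolar transcripts were also seen in DMSO 1, where Sftpc was at 15.2 CPM, against at most 0.568 CPM in any other library, and Sftpa1 at 3.75 CPM, against 21.3 and 21.7 CPM in DMSO 2 and DMSO 3 and at most 0.923 CPM with Yoda1. With DMSO 1 as the only control, the log2 differences were 0.61 for Acadm, 0.43 for Acadl, 0.72 for Decr1, -0.52 for Fabp5 and -0.59 for Ucp2. They were farther from those with all 6 libraries for Pex11a (3.01), Crat (0.51), Ehhadh (-0.69), Acaa2 (-0.0468), Cd36 (6.84) and Hadha, whose sign turned (-0.17). In that comparison edgeR called no gene of the whole table in either direction. The unadjusted p was 0.0022 for Pex11a and 0.0090 for Ucp2, and the lone control library is assumed to vary like the Yoda1 libraries.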

How the data were processed

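Bulk RNA-seq of 6 ILC2 libraries, 3 with DMSO and 3 with Yoda1, was analysed from 1 table of expected counts (estimated reads per gene, not always whole) deposited by the authors. The build was mm10 per the submitters' processing notes, and Partek is named in the deposited table's title; for the aligner, counting method, strand setting and annotation, nothing is given in the sources used here. Groups follow the sample labels; the design text and the table call the control PBS. Every gene in the table had a total of at least 10, and 19 of 39 members had a count more than 0.01 off a whole number.

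Counts were rounded and tested with edgeR 4.0.16 in R 4.3.3 (TMM factors, filterByExpr with minimum count 10 and minimum total 15, glmQLFit, glmQLFTest, no covariates) over 13325 genes, with Benjamini-Hochberg adjustment and a threshold of 0.05. The SE is the log2 difference divided by the square root of F. The common biological coefficient of variation was 0.355. The fit was run on simulated data with less spread between libraries than these data have. That run checks the code and does not show how many true changes would be called here. A count of 0 allows up to 0.0949 to 0.211 CPM (3 counts, counting error only).

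The members and lists were chosen with earlier results of these data known. Values per library are given for members past the threshold, members without overlap at an unadjusted p under 0.05, the PPAR and coactivator members and Cpt1a; other members given so were added. From the other lists, genes past the threshold and the Pex11 and Rxr genes are named; a gene of these lists that is withheld is not reported here. Positions and lengths are from GENCODE M21 on GRCm38. CPM per kb uses the coding transcript with the longest coding sequence, so it depends on that choice. Alternatives were other scaling factors and filters, DESeq2 1.42.0, limma 3.58.1 voom, glmTreat, a label suffix term, summed libraries and each library left out.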

Additional observations from a re-analysis of the deposited data

How the results depend on the processing

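The counts of members past the threshold rest on 2 genes close to it. Members higher and lower with Yoda1 numbered 1 and 1 with each of the other scaling factors and with voom. They numbered 4 and 1 with DESeq2, and 0 and 1 with a filter of 10 CPM in 3 libraries (where Pex11a was not tested). They numbered 0 and 0 without a filter, with glmTreat against 1.5-fold, and with summed libraries of a shared label number. The label suffix is 0 for DMSO 1 and DMSO 2 only. A suffix term therefore leaves DMSO 3 as the only control for the Yoda1 difference, and that fit does not adjust for a batch. In it the log2 difference was 2.28 for Pex11a and -0.45 for Ucp2. These are sizes of difference only, and they do not show that either call held. Without 1 library, members higher numbered 0 in each fit and members lower 0 to 1. All genes higher and lower, 76 and 123, became 50 and 83 without a filter, 158 and 290 at 10 CPM, and 414 and 452 with DESeq2. They became 6 and 10 with glmTreat, and 1 and 0 with summed libraries. Genes higher numbered 121 with voom, and both counts were 153 and 216 in voom with a random effect for the label number. The correlation estimated there between libraries of a shared number was below 0 (-0.0627). That fit therefore made no allowance for libraries of a pair being alike. Left-out libraries gave 4 to 74 higher and 5 to 146 lower. The 7 mitochondrial members higher at an unadjusted p under 0.05 became 0 with glmTreat and 3 to 6 without 1 library. The 0 lower became 1 with upper quartile factors and 0 to 1 without 1 library. The cause was not tested. Signs turned for genes near 0. Pparg went to -0.0409 (upper quartile), -0.0214 (10 CPM filter), -0.0016 (voom), -0.0492 (summed) and -0.0188 (DMSO 1 alone), and ran from -0.0714 (without DMSO 3) to 0.0807 over left-out libraries. Ppargc1b went to 0.15 (voom), 0.0689 (summed) and 0.14 (random effect), and ran from -0.42 to 0.31 (without Yoda1 5) over left-out libraries, with 0.16 without DMSO 1 and 0.20 without DMSO 3. Ppard went to -0.39 (suffix term) and ran from -0.0539 (without Yoda1 5) to 1.40. Hadha went to -0.17 (DMSO 1 alone). Pex11g went to -0.36 (DMSO 1 alone) and ran from -0.16 (without Yoda1 5) to 0.43. Rxra went to 0.24 and Rxrg to 0.57 (suffix term), and over left-out libraries they ran from -0.55 to 0.28 (without Yoda1 6) and from -0.45 to 0.30 (without DMSO 1). DMSO 1 alone and the random effect were added after seeing the data. No paired analysis was possible because the libraries are numbered 1 to 3 and 4 to 6, with no number in both groups. Hilpda lost its call with summed libraries (adjusted p = 0.168) and glmTreat (0.236), and Plin2 kept its call in both. With DMSO 1 as the only control the log2 difference was 0.98 for Hilpda and 1.38 for Plin2. With the suffix term, which leaves DMSO 3 as the control, it was 1.02 for Hilpda and 1.28 for Plin2. With 1 control library these sizes do not show that a call held for Hilpda or Plin2. Ppard rests on 10 to 63 counts per library.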
